A study of Mus musculus with 10 samples.

Results

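The Gata genes encode the 6 mouse transcription factors Gata1 to Gata6, and they are described here by the Polycomb sites that lie at them in embryonic stem cells (ESCs). The members were taken as the whole family, 6 of the 22367 protein-coding genes of the GENCODE vM1 annotation, and a site was given to a member when it shared at least 1 bp with the gene body or with 5 kb on each side of it. Of 8876 Suz12 binding sites 19 met this rule, as did 16 of 5722 Suz12-depleted sites, 18 of 5242 Pcl3 binding sites and 3 of 678 sites with decreased H3K27me3. Depleted and decreased mean lower in cells with Pcl3 shRNA than in cells with scramble shRNA. All positions are 1-based coordinates in mm9.

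Chromatin immunoprecipitation with sequencing (ChIP-seq) was used to ask where Suz12 and Pcl3 bind in mouse ESCs and which sites lose Suz12 or H3K27me3 when Pcl3 is knocked down. Suz12 was pulled down through its tag with the FlagM2 antibody, and H3K27me3 with its own antibody, in cells of the BayGenomics gene trap line XG122 that carry 1 tagged allele (Suz12 Suz12TAP/+), each with 1 library from cells given scramble shRNA and 1 from cells given Pcl3 shRNA. Pcl3 was pulled down with FlagM2 in E14 ESCs that carry Pcl3-TAP together with shRNA 6 or shRNA 7, which target the wild-type Pcl3 transcript, with 1 library for each shRNA and 1 site list for both. Input DNA was sequenced for each of these 4 cell populations, which makes 10 libraries in all (6 ChIP and 4 input). The label of the input library from XG122 cells with Pcl3 shRNA names shRNA 6, and the labels of the matching ChIP libraries give no number. Every comparison of scramble with Pcl3 shRNA therefore rests on 1 library per condition of 1 gene trap line, no spread between replicates could be computed, and no test between conditions was made. The values are the p-values of sites as the authors deposited them, from a Skellam test of windows of the genome. Such a p-value sets the reads of libraries against each other and says nothing of how far separate cultures vary, and the number of reads behind a site is unknown.

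Gata proteins bind DNA at GATA sequences through zinc fingers and direct the choice of cell lineage. Gata1, Gata2 and Gata3 are best known from blood, where Gata1 drives red cells and megakaryocytes, Gata2 maintains haematopoietic stem and progenitor cells and Gata3 directs T cells, while Gata4, Gata5 and Gata6 act in endoderm and heart. In ESCs such lineage genes are typical targets of Polycomb repressive complex 2 (PRC2), in which Suz12 is a core subunit, Ezh2 places the H3K27me3 mark and Pcl3 is one of the Polycomb-like accessory subunits.

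The promoters below are shown because they hold the contrast within the family between CpG-poor and CpG-rich starts, and every CG dinucleotide is in capitals. The first 4 are RefSeq promoters of 250 bases before to 50 bases after a start, taken from the RefSeq table for GRCm38.p6 and placed in mm9 by an exact match, each printed 5′ to 3′ on the strand of its gene. They are that of Gata1 at chrX:7544987-7545286 (minus strand, 4 CG), that of Gata2 at chr6:88143635-88143934 (plus strand, 32 CG), that of Gata3 at chr2:9800178-9800477 (minus strand, 22 CG) and that of Gata5 at chr2:180069335-180069634 (minus strand, 26 CG). The last sequence is the 300 bases of mm9 before the most upstream annotated Gata3 start, chr2:9811662-9811961 (minus strand, 7 CG), shown because 189 of its bases lie in a site with decreased H3K27me3.
Gata1: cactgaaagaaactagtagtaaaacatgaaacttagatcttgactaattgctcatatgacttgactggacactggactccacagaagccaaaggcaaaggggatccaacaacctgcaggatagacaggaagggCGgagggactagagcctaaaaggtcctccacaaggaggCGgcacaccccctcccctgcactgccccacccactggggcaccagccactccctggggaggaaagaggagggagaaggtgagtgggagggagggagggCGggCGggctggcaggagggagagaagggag
Gata2: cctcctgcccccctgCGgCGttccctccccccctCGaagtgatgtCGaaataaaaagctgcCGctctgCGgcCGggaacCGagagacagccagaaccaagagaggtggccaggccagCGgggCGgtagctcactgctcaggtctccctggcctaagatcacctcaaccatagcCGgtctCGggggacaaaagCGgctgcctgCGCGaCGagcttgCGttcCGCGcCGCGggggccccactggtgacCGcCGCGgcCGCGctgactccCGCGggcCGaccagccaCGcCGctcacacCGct
Gata3: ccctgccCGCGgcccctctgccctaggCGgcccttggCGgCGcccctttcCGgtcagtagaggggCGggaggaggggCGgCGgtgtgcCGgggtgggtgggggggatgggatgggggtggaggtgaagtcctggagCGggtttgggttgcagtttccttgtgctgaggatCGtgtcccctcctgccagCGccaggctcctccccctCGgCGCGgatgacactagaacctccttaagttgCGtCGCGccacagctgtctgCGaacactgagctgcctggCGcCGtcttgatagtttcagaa
Gata5: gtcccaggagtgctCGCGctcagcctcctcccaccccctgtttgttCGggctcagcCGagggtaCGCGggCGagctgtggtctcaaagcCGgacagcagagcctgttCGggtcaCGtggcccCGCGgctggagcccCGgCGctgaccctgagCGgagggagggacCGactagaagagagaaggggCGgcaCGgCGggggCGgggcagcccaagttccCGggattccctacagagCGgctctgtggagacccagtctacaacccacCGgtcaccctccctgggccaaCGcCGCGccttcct
Gata3 upstream start: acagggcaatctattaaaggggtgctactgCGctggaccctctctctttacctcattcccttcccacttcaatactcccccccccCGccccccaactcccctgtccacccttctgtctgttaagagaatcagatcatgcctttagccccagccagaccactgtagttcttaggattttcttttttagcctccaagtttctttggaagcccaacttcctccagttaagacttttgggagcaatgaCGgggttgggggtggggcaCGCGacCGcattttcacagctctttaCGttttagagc

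The Gata1 promoter shared no base with any of the 4 site lists, whereas all 300 bases of each of the other 4 sequences lay inside sites of the Suz12, Suz12-depleted and Pcl3 lists. The median number of CG over the 32544 distinct RefSeq promoters was 7.00, and 31.0% of them held fewer than the Gata1 promoter, 90.4% fewer than that of Gata2, 76.7% fewer than that of Gata3 and 83.0% fewer than that of Gata5. The sequence before the upstream Gata3 start, with more CG than 47.6% of these promoters, was thus close to the middle. A search for the letters GCGCGC, which read the same on both strands, found a match in 1 of the 5 RefSeq promoters of the family, the downstream Gata2 promoter at chr6:88148408-88148707 (plus strand, 29 CG, not printed), and in 13.7% of all promoters. The 5 sequences printed held no match. A search on either strand for GATAA or GATAG with A or T in front, the motif that Gata proteins bind, found a match only in the Gata3 promoter among these 5, and 29.6% of all promoters held 1. The RefSeq table held 5 promoters for 4 of the 6 members, Gata1, Gata2 (a pair), Gata3 and Gata5.

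Suz12, Suz12-depleted and Pcl3 sites were each found at the same 5 of 6 Gata genes, Gata2, Gata3, Gata4, Gata5 and Gata6, and at no position of the Gata1 window. Sites with decreased H3K27me3 were found at 2 genes, Gata3 and Gata4. Under the same rule 28.8% of all protein-coding genes had a Suz12 site, 20.7% a Suz12-depleted site, 14.7% a Pcl3 site and 3.13% a site with decreased H3K27me3. Among genes with a Suz12 site, 71.7% were also in the depleted list and 47.7% in the Pcl3 list, beside 5 of 5 Gata genes for each. The shares for the family stood above those backgrounds, but 6 genes chosen with results of these data known are a description only. In bulk chromatin, binding reduced in every cell and binding lost from some of the cells cannot be told apart.

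**Figure D1:**
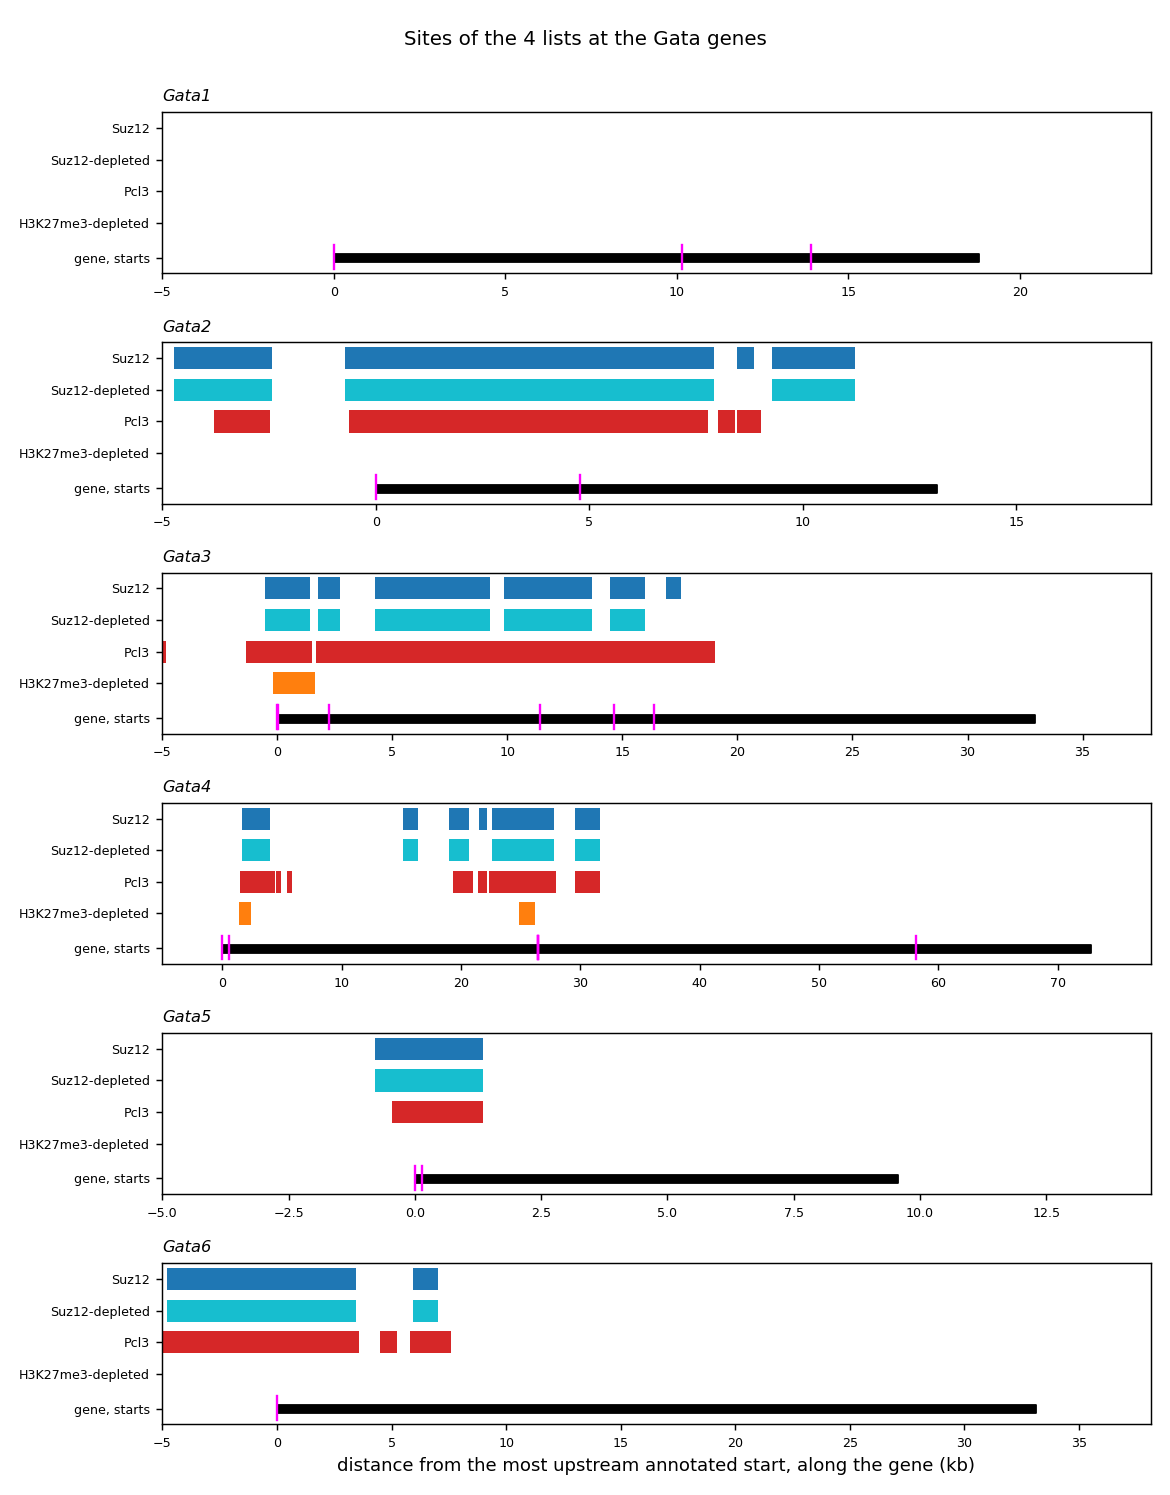
Sites of the 4 lists along each Gata gene, with the distance from the most upstream annotated start on the x axis (kb, direction of transcription to the right) 1 row per list, the gene body in black, annotated transcript starts as magenta ticks and each panel cut 5 kb beyond the gene. Gata1 is empty, 5 genes have overlapping Suz12, Suz12-depleted and Pcl3 sites near starts, and orange bars are present at Gata3 and Gata4.

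Gata1, the factor needed for red cell and megakaryocyte maturation, lies on chromosome X from 7536386 to 7555197 on the minus strand (ENSMUSG00000031162.8). No site of any list touched its window of 28812 bp. The nearest Suz12 site lay 35936 bp from the gene, from 7499001 to 7500450 at Pcsk1n (p of 6.18e-35), and was itself in the depleted list. The nearest Pcl3 site, from 7499001 to 7499600 (p of 5.13e-10), also lay at Pcsk1n. The 3 annotated Gata1 starts had 0.70, 1.60 and 1.80 CpG per 100 bp in the 1 kb around them, beside a median of 4.10 over the starts of all protein-coding genes. Gata1 was thus low in CpG at every start and had no site.

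Gata2, which maintains blood stem and progenitor cells, lies on chromosome 6 from 88143885 to 88157024 on the plus strand (ENSMUSG00000015053.8). Its 4 Suz12 sites covered 13300 bp, or 57.5% of its window. The main site ran from 88143151 to 88151800 (8650 bp, p written as 0), ranked 34 of 8876 by width and held both annotated starts, whose surroundings had 8.79 and 6.89 CpG per 100 bp. A site before the gene, from 88139151 to 88141450 and outside any exon, had a p of 6.17e-135. A site over coding sequence near the 3′ part of the gene, from 88153151 to 88155100, had a p of 2.68e-49. The smallest, from 88152351 to 88152750 over a coding exon, had a p of 8.26e-08 and ranked 8846 of 8876. The first 3 named were in the depleted list and the smallest was not.

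Pcl3 covered 10650 bp of the Gata2 window in 4 sites. The main one, from 88143251 to 88151650 (8400 bp, p written as 0), followed the main Suz12 site almost end to end, and 97.1% of that Suz12 site lay in it. The upstream Pcl3 site (88140101 to 88141400, p of 2.31e-35) covered 56.5% of the upstream Suz12 site. The smallest Suz12 site lay whole inside a Pcl3 site of 550 bp (88152351 to 88152900, p of 4.25e-09). The Suz12 site at 88153151 shared no base with Pcl3 and was depleted all the same, and a Pcl3 site of 400 bp in an intron (88151901 to 88152300, p of 6.62e-08) shared none with Suz12. No site with decreased H3K27me3 lay closer than 4477985 bp to Gata2.

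Gata3, which directs T cell development and also acts in trophectoderm, lies on chromosome 2 from 9778705 to 9811661 on the minus strand (ENSMUSG00000015619.9). Its 6 Suz12 sites covered 13850 bp, the highest value in the family and rank 39 among all 22367 genes. The site from 9798001 to 9801800 (3800 bp, p written as 0) held the start at 9800227. The neighbouring intronic site from 9802401 to 9807400 (5000 bp, p written as 0) was the widest of the gene. The site from 9810251 to 9812200 (p of 9.45e-122) held the most upstream starts at 9811629 and 9811661. The other 3 were the sites from 9795701 to 9797200 (p of 5.38e-109), from 9808951 to 9809900 (p of 3.14e-23) and from 9794101 to 9794750 (intron, p of 1.97e-11). All but the last, which was the weakest and the farthest downstream, were in the depleted list.

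At Gata3 Pcl3 covered more than Suz12, 20411 bp of the window against 13850 bp. A single Pcl3 site from 9792651 to 9810000 (17350 bp, p written as 0) was number 13 by width among 5242 and spanned 5 of the 6 Suz12 sites, gaps included. A second from 9810151 to 9813050 (p of 3.59e-105) covered the upstream starts. Every Suz12 base at Gata3 lay inside Pcl3 sites. The annotation places 4930412O13Rik and 9230102O04Rik, both listed as protein-coding, and the transcript Gm13256 inside or across the Gata3 body, so these sites cannot be given to Gata3 alone.

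Gata4, a regulator of heart muscle and endoderm, lies on chromosome 14 from 63817759 to 63890529 on the minus strand (ENSMUSG00000021944.8) and has the longest window, 82771 bp. Its 6 Suz12 sites covered 13200 bp and were spread over 30000 bp from the first base to the last. The main one, from 63862751 to 63867950 (5200 bp, p written as 0), held the cluster of 3 starts at 63864085, 63864097 and 63864108. Downstream of it the site from 63858851 to 63860950, over coding sequence, had a p of 6.69e-139. Upstream, within introns of the longer transcripts, lay sites at 63869851 to 63871550 (p of 4.29e-84), 63874151 to 63875350 (p of 5.61e-53), 63886551 to 63888850 (p of 8.03e-130) and 63868351 to 63869050 (p of 4.89e-11). The last of these was the single Gata4 Suz12 site outside the depleted list.

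The upstream Gata4 starts at 63889961 and 63890529 lay outside Suz12 sites, at 1111 and 1679 bp from the nearest, and the start at 63832444 lay 26407 bp away. These 3 starts had 1.20, 1.20 and 0.90 CpG per 100 bp around them, against 6.29 at the cluster inside the main site. Pcl3 covered 13950 bp in 7 sites, led by the site from 63862601 to 63868200 (5600 bp, p written as 0). Another 4 shared bases with Suz12 sites, at 63858851 to 63861000 (p of 8.24e-75), 63868301 to 63869100 (p of 2.56e-18), 63869551 to 63871200 (p of 8.82e-42) and 63886101 to 63889000 (p of 6.14e-78). The site at 63874151 shared no base with Pcl3, had 7.67 CpG per 100 bp, the highest of all 19 Suz12 sites at the family, and was depleted. Between the Suz12 sites at 63874151 and 63886551, Pcl3 sites of 450 and 400 bp (63884651 to 63885100, p of 1.72e-08, and 63885601 to 63886000, p of 5.27e-08) shared no base with Suz12.

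Gata5, which acts in heart and endoderm development, lies on chromosome 2 from 180059838 to 180069404 on the minus strand (ENSMUSG00000015627.4). It had 1 site in each of 3 lists. The Suz12 site from 180068051 to 180070200 (2150 bp, p of 6.39e-196, rank 808 of 8876) held both starts and was depleted. The Pcl3 site shared its downstream edge, ran to 180069850 (1800 bp, p of 5.90e-73) and covered 83.7% of it. Gata5 ranked 1944 by Suz12 bases, whereas the other 4 genes with sites ranked between 39 and 149. Gm14318, a protein-coding gene on the plus strand, overlaps this region from 180067562 to 180075437, so the site may be counted for either gene.

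Gata6, which specifies primitive endoderm in the early embryo, lies on chromosome 18 from 11052508 to 11085633 on the plus strand (ENSMUSG00000005836.8). The Suz12 site from 11047701 to 11055950 (8250 bp, p written as 0) ranked 45 by width, held the annotated start and reached across the noncoding RNA 1010001N08Rik, which is read in the other direction. A second site from 11058451 to 11059550 lay over a coding exon (p of 1.57e-56). Both were depleted and both lay whole inside Pcl3 sites, from 11046951 to 11056100 (9150 bp, p written as 0) and from 11058301 to 11060100 (p of 1.93e-66). Between them an intronic Pcl3 site from 11057001 to 11057750 (p of 8.22e-16) shared no base with Suz12 and held no CpG at all, 0.00 per 100 bp. No site with decreased H3K27me3 lay within 12825918 bp.

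**Figure D2:**
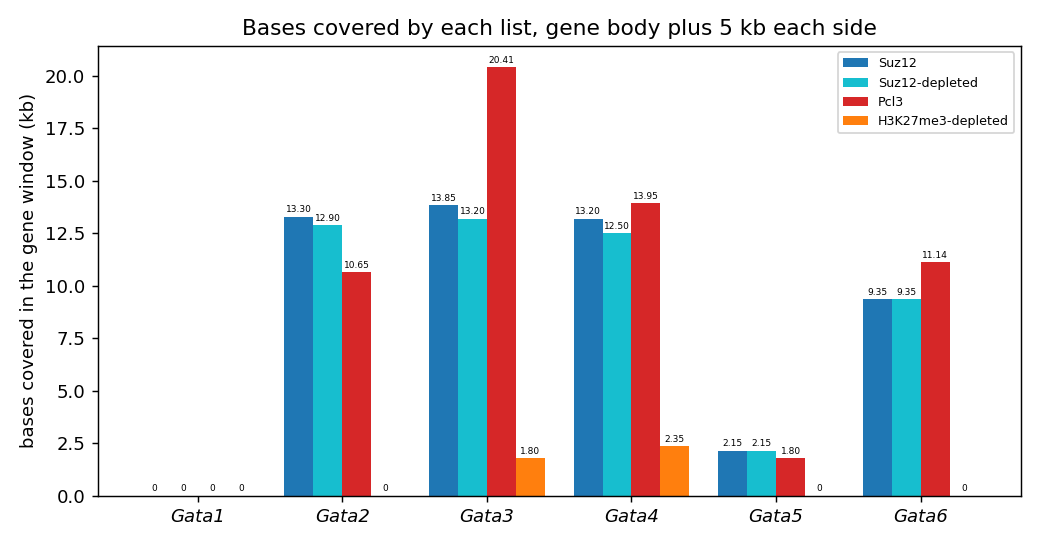
Bases of each gene window (gene body plus 5 kb on each side) covered by each of the 4 lists, in kb on the y axis, 1 group of bars per Gata gene. Suz12 covers between 9350 and 13850 bp at 4 genes, 2150 bp at Gata5 and none at Gata1, and decreased H3K27me3 covers 1800 bp at Gata3 and 2350 bp at Gata4.

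By bases covered, the Suz12 order was Gata3 (13850 bp), Gata2 (13300 bp), Gata4 (13200 bp), Gata6 (9350 bp), Gata5 (2150 bp) and Gata1 (0 bp). With 1 scramble library there is no spread to set these differences against, and the first 3 lie close to each other. As a share of the window the order changed, since the windows run from 19567 to 82771 bp. Suz12 then covered 57.5% at Gata2, 32.2% at Gata3, 21.7% at Gata6, 15.9% at Gata4, less at Gata5 and none at Gata1. The Pcl3 order by bases was Gata3, Gata4 (13950 bp), Gata6 (11143 bp), Gata2 and Gata5. As a share of the window Pcl3 covered 47.5% at Gata3, 46.0% at Gata2, 25.8% at Gata6, 16.9% at Gata4 and 9.20% at Gata5. On both lists Gata2 and Gata3 thus had the highest shares and Gata5 the lowest among the 5 genes with sites.

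The Suz12 sites of the family were wide, with a median of 1950 bp beside 1100 bp over all 8876. Of the 19, 5 sites in 4 genes had a p-value too small for the number format and written as 0, which held for 435 sites or 4.90% of the list. These 5 sites were the main ones of Gata2, Gata4 and Gata6 and the 3800 and 5000 bp sites of Gata3. At the other end, 3 sites of 400 to 700 bp had p-values above 1e-12. Of all 19 sites, 8 held an annotated start of a member and 9 a start of any protein-coding gene, beside 55.1% of all Suz12 sites for the latter. By the most upstream start of each gene, 4 of 6 members (Gata2, Gata3, Gata5 and Gata6) had it inside a Suz12 site, beside 18.2% of all protein-coding genes.

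**Figure D3:**
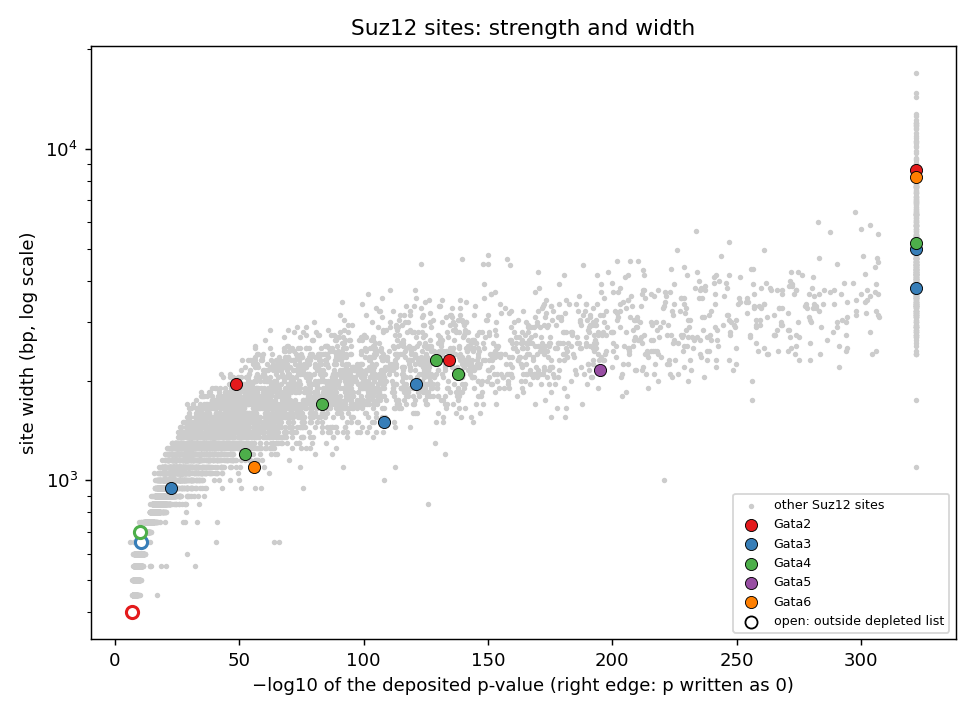
Width of each Suz12 site (bp, log scale) against −log10 of its deposited p-value, with grey points for all other sites, coloured points for sites at Gata genes and p-values written as 0 placed at the right edge. The 3 open points, sites outside the depleted list at Gata2, Gata3 and Gata4, lie at the lower left, and 5 filled points lie at the right edge.

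Of the 19 Suz12 sites 16 were in the list of sites that lose Suz12 with Pcl3 shRNA, beside 64.5% of all Suz12 sites. The 3 outside it were exactly the 3 with a p-value above 1e-12, at Gata2, Gata3 and Gata4. Membership in the depleted list moved with binding p-value across the whole series too, where it was 9.40% of sites above 1e-12 and 82.4% of sites at or below it. The family's counts of 0 of 3 and 16 of 16 thus followed the direction of the background, and the part of site strength in them was not tested. The depleted list repeats the position and p-value of binding for 5722 of 5722 sites, so how much Suz12 was lost at each gene is unknown. Of the Suz12 bases, depleted sites held 94.7% at Gata4, 95.3% at Gata3, 97.0% at Gata2 and 100% at Gata5 and Gata6, beside 83.4% of the bases of all Suz12 sites.

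Pcl3 and Suz12 lay together at the family. Of the 19 Suz12 sites 17 shared bases with a Pcl3 site, beside 44.3% of all Suz12 sites. A Pcl3 site with its centre within 2 kb, the distance rule of a figure legend of the study, was found for 14, beside 44.9%. The rules differed mainly at Gata3, where the Pcl3 site of 17350 bp has its centre far from its ends. Pcl3 sites held 46750 of the 51850 Suz12 bases, or 90.2%, against 48.8% of the bases of all Suz12 sites. By gene this share was 100% at Gata3 and Gata6, 88.3% at Gata4, 83.7% at Gata5 and 75.9% at Gata2. Wider and stronger sites make up more of the family than of the list, and the part of this in the overlap was not tested.

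The exceptions ran both ways. The 2 Suz12 sites without Pcl3 bases, 1 at Gata2 and 1 at Gata4, were both depleted, beside 45.5% of all Suz12 sites without Pcl3 bases, and both had p-values below 1e-12. The 3 sites that were not depleted lay whole inside Pcl3 sites. Depleted sites were thus 14 of the 17 with Pcl3 bases and 2 of the 2 without. In the whole list 3928 of 8876 Suz12 sites had Pcl3 bases, and 2251 of the 5722 depleted sites had none. Most Suz12 sites with Pcl3 bases were thus depleted in the whole list too, so 14 of 17 did not set the family apart. With only 2 sites without Pcl3 bases, the family cannot show whether depletion went with Pcl3. By centres within 2 kb, depleted sites were 12 of the 14 with Pcl3 and 4 of the 5 without, beside 47.8% of all Suz12 sites without. By this rule the Gata2 site at 88153151 counted as one with Pcl3. In the whole list 3989 of 8876 Suz12 sites had such a centre, and 2334 of the 5722 depleted sites had none. Again most Suz12 sites with Pcl3 were depleted there, so 12 of 14 did not set the family apart. Of the 18 Pcl3 sites 4 shared no base with Suz12, 1 at Gata2, 2 at Gata4 and 1 at Gata6, beside 23.1% of all Pcl3 sites. These 4 were between 400 and 750 bp wide, and all lay in introns.

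Decreased H3K27me3 was listed at Gata3 and Gata4, which is 2 of the 5 Gata genes with a Suz12-depleted site, beside 14.1% of all genes with one. No member lies on chromosome 11, and outside that chromosome the background share was 11.4%. Among the 150 genes with at least as many Suz12 bases as Gata6, however, 50.7% had such a site. The count of 2 among the 4 broadly covered Gata genes (Gata3 and Gata4, not Gata2 or Gata6) was close to that share. Unlike the 11.4%, the 50.7% takes in genes of chromosome 11, and it was not computed without them. The comparison outside chromosome 11 and that by Suz12 bases were added once the values were known.

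The Gata3 site with decreased H3K27me3 ran from 9810051 to 9811850 (1800 bp, p of 5.16e-12, rank 144 of 678). It held the upstream starts at 9811629 and 9811661, next to the upstream sequence printed above, and not the CpG-richer promoter at 9800227, which lay 9824 bp from it. The upstream end of 9230102O04Rik, at 9811167 on the same strand, also lay inside it, so the site cannot be given to Gata3 alone. Suz12 sites covered 88.9% and Pcl3 sites 94.4% of this H3K27me3 site. At Gata4 one site ran from 63864301 to 63865650 (1350 bp, p of 2.29e-10, rank 223), in an intron 193 bp upstream of the start at 63864108 and whole inside both the main Suz12 and the main Pcl3 site. The other ran from 63888151 to 63889150 (1000 bp, p of 8.32e-08, rank 621), 811 bp from the upstream start at 63889961, with 70.0% of its bases in Suz12 and 85.0% in Pcl3 sites. Of the Suz12 sites 3 shared bases with these sites and 4 had the centre of 1 within 2 kb, beside 7.37% of all Suz12 sites. With p-values limited to 1e-10 the count of genes was 1 (Gata3), and with a limit of 1e-12 it was 0. All 3 sites were narrower than the Suz12 sites around them, and each lay close to a start or over one.

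The Suz12 sites at Gata genes were lower in CpG than those of the list, with a median of 3.88 CpG per 100 bp (1.47 to 7.67) beside 5.41 over all Suz12 sites. The 3 sites that were not depleted had 1.86, 2.00 and 2.50 CpG per 100 bp. The depleted Gata3 site from 9808951 to 9809900 had 1.47, the lowest of the 19, so low CpG was present in a depleted site too. The starts spanned a wide range, from 0.70 at Gata1 and 0.80 at a Gata3 transcript starting at 9795299 to 8.79 at Gata2. Of the 9 starts of the family with more than 4.10 CpG per 100 bp, the median of all genes, 9 lay inside Suz12 sites, beside 29.0% of all such starts. Of the 11 starts at or below it 4 did, all at Gata3, beside 3.58%. Of the 20 distinct annotated starts 13 lay inside a Suz12 site and a depleted site, 14 inside a Pcl3 site and 2 inside a site with decreased H3K27me3. Over the 70051 distinct starts of all protein-coding genes these shares were 14.8% for Suz12, 11.2% for depleted, 6.19% for Pcl3 and 0.517% for decreased H3K27me3 sites, and starts of 1 gene often share a site. The start inside Pcl3 alone was that at 9795299, which lay 402 bp from a Suz12 site.

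**Figure D4:**
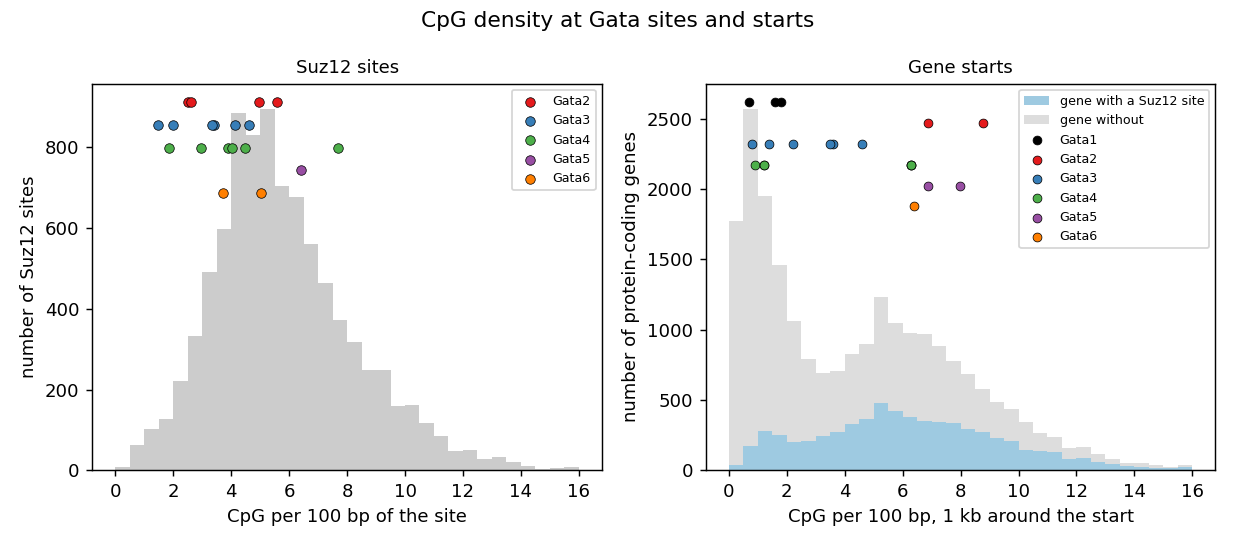
CpG per 100 bp of all Suz12 sites (left, grey histogram) and of the 1 kb around the start of all protein-coding genes (right, stacked histogram of genes with and without a Suz12 site), with values above 16 placed in the last bin and the Suz12 sites and annotated starts of the Gata genes as coloured points, whose height carries no value. The 3 Gata1 starts lie between 0.70 and 1.80 and the Gata2 starts at 6.89 and 8.79.

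The letters GCGCGC occurred in the central 500 bp of 1 of the 19 Suz12 sites, the main site of Gata2, beside 37.5% of all Suz12 sites. They occurred in 3 of the 18 Pcl3 sites, at Gata2 (2 sites) and Gata5, beside 33.7% of all Pcl3 sites. This search says only whether these letters are in that window, and for sites several kb wide the window leaves out most of the site.

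Genes that work with Gata factors were counted in the same way, from lists chosen with results of these data known. Over all protein-coding genes, 28.8% had a Suz12 site, 20.7% a depleted site, 14.7% a Pcl3 site and 3.13% decreased H3K27me3. Among genes with a depleted site, 14.1% had decreased H3K27me3. Of 12 GATA partners, most of them known from blood, 10 had a Suz12 site, 9 a depleted site, 8 a Pcl3 site and 1 decreased H3K27me3. That 1 was Runx1, a master regulator of definitive blood, with 6300 bp of Suz12 and p of 2.05e-08 for its H3K27me3 site. Tal1, the bHLH partner of Gata1 in red cells, had 7650 bp and its relative Lyl1 6700 bp of Suz12. Ldb1 and Nfe2 had no site, which is named after their values were seen.

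Of 10 endoderm regulators, 8 had a Suz12 site, 6 a depleted site and 6 a Pcl3 site. Of all protein-coding genes 28.8%, 20.7% and 14.7% did. Foxa1 and Foxa2, forkhead factors of gut endoderm, had 11441 and 9938 bp of Suz12. All 9 cardiac regulators had a Suz12 site and a depleted site, and 7 had a Pcl3 site, beside the same shares of all genes. Decreased H3K27me3 lay at 3.13% of all protein-coding genes and 14.1% of those with a depleted site. Among the 150 genes with at least the Suz12 bases of Gata6 (9350 bp) this share was 50.7%. Only Tbx5 and Hand2 of the cardiac regulators had that many, so this share does not match the list as a whole. Of the cardiac regulators 3 had decreased H3K27me3. These 3 were Tbx5 (12050 bp of Suz12, smallest H3K27me3 p of 7.22e-17), Hand1 (8500 bp, 7.07e-17) and Tbx20 (5250 bp, 1.18e-12), and Hand2 (9464 bp) and Nkx2-5 (7500 bp) had none. Hand1 lies on chromosome 11, the chromosome left out of the background of 11.4%.

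Of 8 trophoblast regulators, 6 had a Suz12 site, 6 a depleted site and 5 a Pcl3 site. The shares of all protein-coding genes were 28.8%, 20.7% and 14.7%. Decreased H3K27me3 was listed for 3 of the 8, beside 3.13% of all protein-coding genes and 14.1% of those with a depleted site. The 3 were Cdx2 (10800 bp of Suz12, H3K27me3 p of 3.04e-12), Eomes (8800 bp, 4.81e-08) and Ascl2 (2750 bp, 9.74e-08), and Tfap2a (13099 bp) and Tfap2c (6900 bp) had none. The other 9 genes with a GATA-type zinc finger, mostly widely expressed chromatin factors, stood nearer to the background, with 3, 2, 1 and 0 genes in the same order of lists. Among them Mta1 had 1100 bp and Rere 700 bp of Suz12, and Trps1, named after its values were seen, had a Pcl3 site of 650 bp and no Suz12 site.

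**Figure D5:**
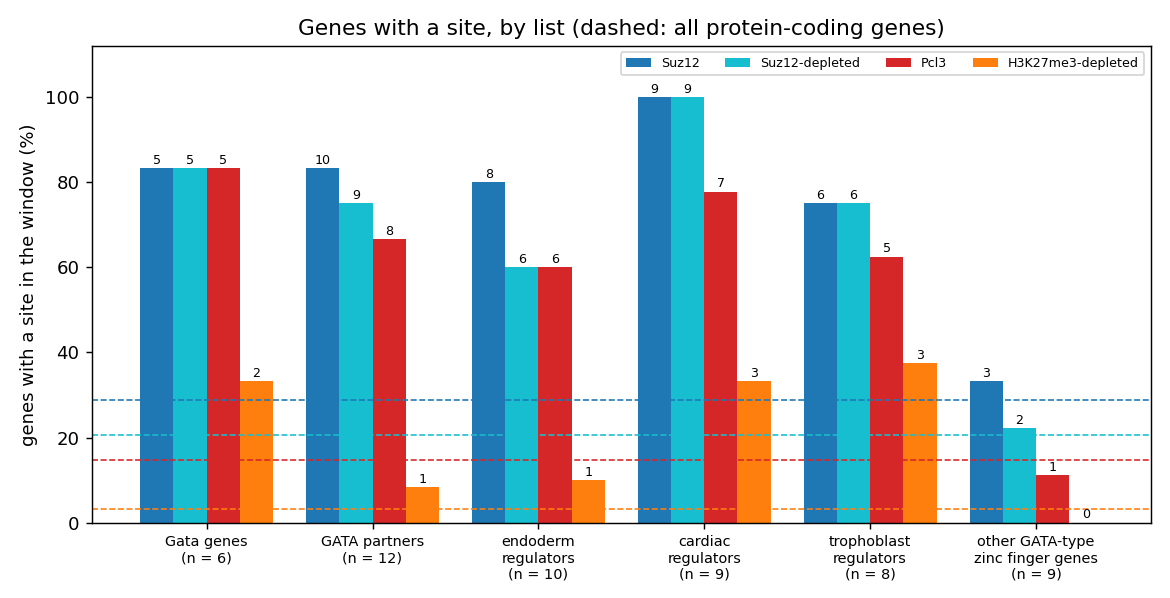
Percent of genes with a site in the window (y axis) for the Gata genes and 5 other gene lists, with 1 bar per site list, the number of genes above each bar and dashed lines at the percent over all protein-coding genes. The cardiac regulators reach 9 of 9 genes for Suz12, the Gata genes 5 of 6, and the other GATA-type zinc finger genes 3 of 9.

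The genes most like each member were found by the distance over 4 values, log10 of 1 plus the bp covered by each list, with the 3 nearest of all protein-coding genes named. For Gata2 they were Wnt10a, Msx1 and Zfp503 (distances 0.097 to 0.106), for Gata3 Hoxa10, Hoxb7 and Pax2 (0.121 to 0.188) and for Gata4 Hoxb7, Cbx8 and Sim2 (0.132 to 0.142). For Gata5 they were St8sia3, Cadps and Stk39 (0.012 to 0.018), and for Gata6 Hoxc12, Hoxd12 and Prdm13 (0.017 to 0.029). Gata2, Gata5 and Gata6 were nearest to genes without decreased H3K27me3, and Gata3 and Gata4 to genes that had 1650 to 3000 bp of it, which the distance itself includes.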

How the data were processed

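ChIP-seq site lists from 10 mouse ESC libraries were used. Reads of 30 nucleotides had been placed on mm9 by the authors (bowtie, unique matches only). After scaling each library pair to a common background, they scored windows of 400 bp by the Skellam distribution at a cutoff of 1e-07, merged neighbouring windows and deposited 1 p-value per merged site. A p-value too small for the number format is written as 0. Unique alignment leaves out repeated sequence, and equal background is assumed on every chromosome. The lists hold no read counts, so depth and precision per site are unknown, and how the Pcl3 libraries were combined is not given in the sources used here. Columns left without a sample numbered 0.

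From the lists, overlaps with gene windows (GENCODE vM1), shared bases, CpG and letter matches were counted. Spi1, Tfap2a and Tfap2c were matched through their older symbols. All members and their sites are named, and from each other list every gene with decreased H3K27me3 and the 2 others with the most Suz12 bases. A gene that this rule names is not reported here. Members and lists were chosen with earlier results of these data known. Flanks, distances and p-value limits were varied. The overlap functions were tested on simulated data. Python 3.11.15, numpy 2.4.6, pandas 2.3.3 and matplotlib 3.10.9 were used.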

Additional observations from a re-analysis of the deposited data

How the results depend on the processing

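The counts of Gata genes with a Suz12, Suz12-depleted or Pcl3 site stayed at 5, 5 and 5 with the gene body alone, flanks of 2 or 10 kb, 2 kb around the start, the site centre in place of shared bases, and p-value limits of 1e-10 and 1e-12. Genes with decreased H3K27me3 stayed at 2 except with the p-value limits, where 1 was left at 1e-10 and 0 at 1e-12. Suz12 bases ran from 42674 (gene body alone) to 54000 (10 kb), and Suz12 sites with a nearby Pcl3 centre from 12 (500 bp and 1 kb) to 18 (5 kb). No paired analysis was possible because the lists carry no value per library (1 library per condition for Suz12 and H3K27me3, and 1 list for the 2 Pcl3-TAP libraries), and for the same reason no library could be left out. Without read counts, a gene with no site cannot be told from a gene with weak binding, and H3K27me3 sites near the cutoff are the least secure.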

Other observations

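Just beyond the 5 kb limit before Gata3 lay a Suz12 site from 9816751 to 9818400 on chromosome 2 (1650 bp, p of 6.12e-45), 5090 bp from the gene and in the depleted list. A Pcl3 site from 9816501 to 9818300 (1800 bp, p of 2.80e-44) covers most of it and reached the Gata3 window with 161 bp. The nearest Suz12 sites outside the windows of the other members lay at 28827 bp from Gata2 (p of 8.97e-09), 50497 bp from Gata5 (p of 1.22e-58), 153968 bp from Gata6 (p of 1.58e-24) and 164222 bp from Gata4 (p of 1.07e-17). The nearest sites with decreased H3K27me3 outside the windows lay 162897 bp from Gata5 and 1612290 bp from Gata3.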
